A study of Mus musculus with 6 samples.

Results

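The clusters of Hox genes, which encode transcription factors that set position along the body axis, carry miRNA genes between or within them. The aortic levels of the miR-10, miR-196 and miR-615 miRNAs encoded there are described here. Assays were taken by name, as the mouse assays for miR-10a, miR-10b, miR-196 or miR-615, without the strands marked with an asterisk. Of 596 mouse miRNA assays in the deposited table, 6 met this rule: miR-10a, miR-196b, miR-615-3p, miR-615-5p and a pair of assays that both carry the name miR-10b. The names miR-1960 to miR-1969 begin with the same letters, and these 10 assays were left out because they carry other numbers; for 9 of them a gene was found in the RefSeq list, and 0 of those lay within 1 Mb of a Hox gene. The guide strand of miR-196a was not analysed here.

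RNA of the whole aorta was measured in 3 EC-Dicerflox and 3 EC-DicerWT mice with TaqMan MicroRNA arrays, which are quantitative PCR assays laid out on cards. EC-Dicerflox mice were VE-Cadherin-CreERT2 Dicer1flox/flox Apoe-/- animals and EC-DicerWT mice were their VE-Cadherin-CreERT2 Dicer1WT/WT Apoe-/- littermates, so that both groups lacked apolipoprotein E and carried the inducible Cre recombinase driven by the VE-cadherin promoter of endothelial cells (ECs). Mice of both groups were 6 to 8 weeks old and had been injected daily for 5 days with 2 mg of Tamoxifen (TMX) for each 20 g they weighed. They were then kept for 4 weeks on a high-fat diet (HFD), of which 19.5% was casein, 21% fat and 0.15% cholesterol. The comparison asks which aortic miRNAs depend on Dicer, the enzyme that cuts miRNA precursors, in ECs. The deletion is limited to ECs while the RNA comes from all cells of the vessel wall, and in such bulk RNA fewer cells of a type and less RNA per cell cannot be told apart. Dicer1 mRNA was not measured on these arrays.

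MiRNAs of the Hox clusters are made in the parts of the body in which the surrounding Hox genes are active, and several of them bind Hox transcripts. MiR-10a and miR-10b recognise the same seed matches, and miR-10a is known in ECs as a restraint on inflammatory NF-κB signalling. MiR-196 is known for directing cleavage of the Hoxb8 transcript through a nearly complete match, and miR-615 is encoded inside Hoxc5.

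The mature sequences are shown because the shared seed and the small difference between miR-10a and miR-10b decide which assays read related molecules. Bases run 5′ to 3′, and capitals mark the seed, bases 2 to 8. Sequences and coordinates are those of RefSeq on GRCm38.p6 and were found for all 5 miRNA names; miR-10b* is the other strand of the miR-10b hairpin and was measured too.
miR-10a (chr11:96317186-96317208, plus strand): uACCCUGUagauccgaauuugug
miR-10b (chr2:74726074-74726096, plus strand): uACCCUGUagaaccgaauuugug
miR-196b (chr6:52230129-52230150, minus strand): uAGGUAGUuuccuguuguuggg
miR-615-3p (chr15:103014969-103014990, plus strand): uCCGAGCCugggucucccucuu
miR-615-5p (chr15:103014926-103014947, plus strand): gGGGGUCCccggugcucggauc
miR-10b* (chr2:74726114-74726135, plus strand): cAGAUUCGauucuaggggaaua

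MiR-10a and miR-10b are 23 bases long and identical at 22 of them. Read from miR-10a to miR-10b and counted from the 5′ end, the difference is U12A, outside the seed. Among the RefSeq mature miRNAs of the mouse, these are the only 2 names with the seed ACCCUGU. The seed AGGUAGU of miR-196b is shared with miR-196a alone, and each seed of the miR-615 hairpin belongs to 1 name. In the RefSeq gene list, Mir10a overlaps Hoxb3 and lies between Hoxb5 and Hoxb4, and Mir10b overlaps Hoxd3 and Hoxd4. Mir196b lies between Hoxa9 and Hoxa10 and overlaps the long non-coding RNA gene Gm52902. Mir615 overlaps Hoxc5 and lies between Hoxc6 and Hoxc4. Each of the 4 Hox clusters thus holds 1 of these hairpin genes.

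The values are CT values, the PCR cycle at which an assay's fluorescence crosses its threshold. A lower CT means more RNA, with a doubling per cycle at full efficiency, and an assay without signal is entered as 40. A CT under 40 was found for 375 to 415 miRNA assays per sample, and for 350 assays it was found in all 6 samples. EC-Dicerflox replicate 3 and EC-DicerWT replicate 3 had the highest median CT over these 350 assays, 28.18 and 27.46, against 26.42 to 26.84 in the other 4 samples. Levels relative to control RNAs are given as delta CT, the CT minus the mean CT of the U6 and snoRNA135 wells of the same sample. That control mean ranged from 18.70 to 20.22 and was also highest in these 2 samples.

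MiR-10a had the lowest mean CT of these miRNAs. Its CT was 22.99, 22.55 and 24.44 in EC-Dicerflox replicates 1, 2 and 3, and 22.90, 23.66 and 20.63 in EC-DicerWT replicates 1, 2 and 3. EC-DicerWT replicate 3 stood apart with the earliest signal. EC-Dicerflox replicate 3, whose control RNAs were also the latest, had the latest signal, and the groups overlapped.

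The miR-10b assay of the first card, which shares its seed with miR-10a, gave CT values of 23.51, 22.61 and 24.74 in EC-Dicerflox replicates 1 to 3. In EC-DicerWT replicates 1 to 3 its CT was 23.52, 23.51 and 24.91. The highest CT of each group fell in its replicate 3, and the groups overlapped. EC-DicerWT replicate 3, which had the most miR-10a, thus had the highest CT for miR-10b among all 6 samples.

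A second assay named miR-10b, whose assay number is written in the style of the other card, gave later signals. Its CT was 28.14, 26.80 and 29.78 in EC-Dicerflox and 28.03, 28.95 and 29.78 in EC-DicerWT replicates 1 to 3. The 2 latest signals again came from the 2 samples numbered 3, and the groups overlapped. The table does not say how the molecules read by the assays named miR-10b differ. MiR-10b*, the strand opposite to miR-10b in the hairpin, was detected in all 6 samples at later cycles, with a CT of 33.09, 34.01 and 33.66 in EC-Dicerflox and 33.96, 34.46 and 35.17 in EC-DicerWT replicates 1 to 3, and its groups overlapped.

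MiR-196b, of the Hoxa cluster, had a CT of 28.41, 27.81 and 31.25 in EC-Dicerflox and 28.44, 28.68 and 29.69 in EC-DicerWT replicates 1 to 3. EC-Dicerflox replicate 3 had the highest CT, and the other 2 EC-Dicerflox samples had the lowest ones of all. The passenger strand miR-196a* was listed at 40 in all 3 EC-Dicerflox samples and in EC-DicerWT replicate 2, and at 34.32 and 37.04 in EC-DicerWT replicates 1 and 3. With signals this late and in 2 of 6 wells, no fold change is given for it.

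MiR-615-3p, of the Hoxc cluster, varied least in CT, with 26.74, 26.18 and 26.91 in EC-Dicerflox and 26.06, 26.14 and 27.08 in EC-DicerWT replicates 1 to 3. The range over the 6 aortas was 1.03 cycles, and the groups overlapped. The opposite arm miR-615-5p was listed at 40 in 5 samples and at 38.85 in EC-DicerWT replicate 2. The Mir615 hairpin was thus detected in every aorta through its 3′ arm. Its 5′ arm gave 1 signal, close to the value of 40 for no signal.

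**Figure D1:**
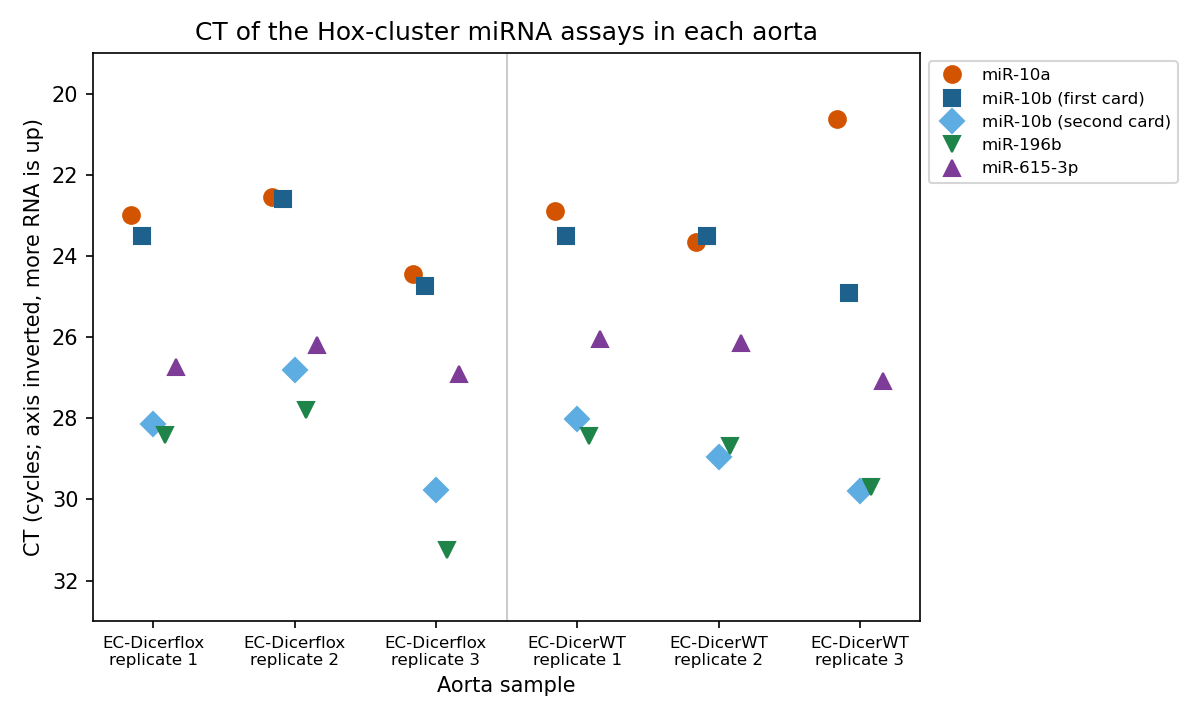
CT in cycles (vertical axis, inverted so that more RNA is up) of the 5 assays with a signal in all samples, for each of the 6 aortas; symbols are single wells, shifted sideways for legibility. The miR-10a symbol of EC-DicerWT replicate 3 lies at 20.63, above all others, while the miR-10b symbol of the first card in that sample lies at 24.91.

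Ranked by mean CT over the 6 aortas, the order was miR-10a (22.86), miR-10b of the first card (23.80), miR-615-3p (26.52), miR-10b of the second card (28.58), miR-196b (29.05) and miR-615-5p. This is an order of PCR signals, since assays differ in efficiency and CT values of different assays are no measure of molecule numbers. Among the 350 assays with a signal everywhere, 19.1% had a lower mean CT than miR-10a, 26.9% than miR-10b of the first card, 44.6% than miR-615-3p and 66.0% than miR-196b. Differences of 2 CT values from 1 aorta need no control RNA and show which neighbours in this order are apart. MiR-10b of the first card minus miR-10a ranged from -0.16 to 4.28 cycles and miR-10b of the second card minus miR-196b from -1.47 to 0.27 cycles, so these neighbours changed places between samples. MiR-615-3p was later than miR-10b of the first card by 2.17 to 3.58 cycles, and miR-10b of the second card was later than miR-615-3p by 0.62 to 2.87 cycles, each in all 6 samples.

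The difference between the seed partners was alike in 5 aortas. MiR-10b of the first card minus miR-10a was 0.51, 0.06 and 0.31 cycles in EC-Dicerflox and 0.62, -0.16 and 4.28 cycles in EC-DicerWT replicates 1 to 3. The mean was 0.29 ± 0.227 (SD, n = 3) in EC-Dicerflox and 1.58 ± 2.37 in EC-DicerWT, with a two-sided exact permutation p of 0.6 (0.857 after Benjamini-Hochberg adjustment over the 10 pairs of assays compared). Without EC-DicerWT replicate 3, the difference between the groups was 0.06 cycles in place of -1.29.

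The distance between the assays named miR-10b varied by 1.25 cycles over the 6 aortas. The second was later than the first by 4.62 ± 0.421 cycles in EC-Dicerflox and 4.94 ± 0.470 cycles in EC-DicerWT (SD, n = 3; exact permutation p = 0.5, adjusted 0.833), with a range from 4.19 to 5.44 over all samples. MiR-196b minus miR-10b of the first card lay between 4.78 and 5.20 cycles in 5 aortas and at 6.51 in EC-Dicerflox replicate 3. MiR-615-3p minus miR-10b of the first card was lowest in the 2 samples numbered 3. No pair of the 10 reached an adjusted p under 0.833 in the exact permutation test, in which 3 samples against 3 allow no p below 0.1.

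**Figure D2:**
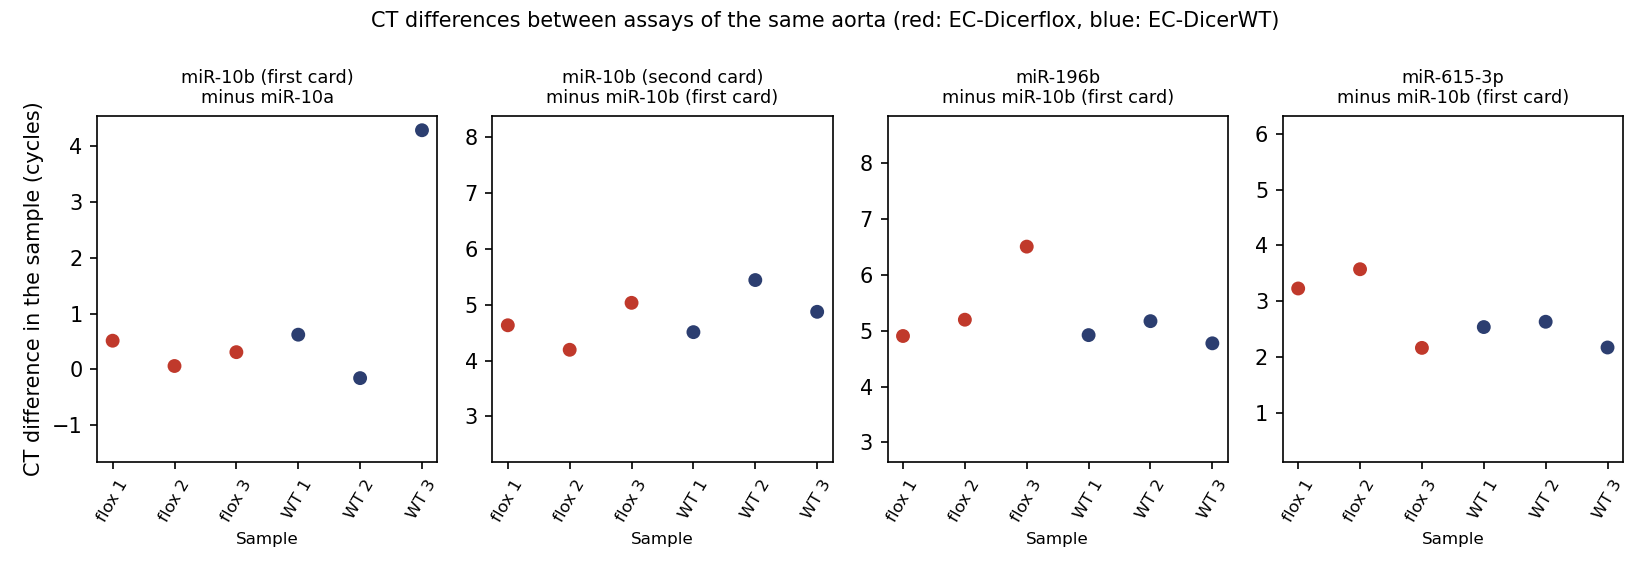
CT difference in cycles between 2 assays of the same aorta (vertical axes, each spanning the same number of cycles) for the 6 samples (horizontal axes); red points are EC-Dicerflox and blue points EC-DicerWT aortas. MiR-10b of the first card minus miR-10a lies between -0.16 and 0.62 in 5 samples and at 4.28 in EC-DicerWT replicate 3.

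Relative to U6 and snoRNA135, no difference between EC-Dicerflox and EC-DicerWT aortas larger than the spread between mice was detected for the Hox-cluster miRNAs. In the limma comparison of all 461 miRNAs with a signal in at least 1 sample, 0 of the 5 Hox-cluster assays with a signal in all samples passed an adjusted p of 0.05, as did 0% of all miRNAs tested. At an unadjusted p under 0.05, 0 of the 5 passed, against 14 (3.04%) of all miRNAs tested. The groups overlapped in delta CT for each of the 5 assays, whereas 10.4% of all miRNAs tested had groups that did not overlap. The delta CT of miR-615-5p rests on the control RNAs in the 5 samples without signal, so that its fitted estimate is not given, although it was among the 461 in the fit. Of the 5 assays with a signal in all samples, 3 had an estimate below and 2 above 0, with a median log2 fold change of -0.03. The median was 0.10 over all miRNAs with a signal in all samples and 0.08 over all tested.

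The estimates for the assays named miR-10b were the highest. For miR-10b of the first card, delta CT was 4.35 ± 0.386 in EC-Dicerflox and 4.86 ± 0.392 in EC-DicerWT (SD, n = 3), a log2 fold change of 0.51 in limma with an adjusted p of 0.923 (95% interval of the fold 0.774 to 2.62). For the second card, delta CT was 8.97 ± 0.767 and 9.80 ± 0.511, a log2 fold change of 0.83 in limma with an adjusted p of 0.923 (0.730 to 4.34). EC-Dicerflox replicate 2 had the highest level with both assays, and EC-DicerWT replicate 3 had the lowest. Within samples of the same replicate number, the EC-Dicerflox level minus the EC-DicerWT level of miR-10b was 0.09, 0.66 and 0.78 log2 units with the first-card assay and -0.03, 1.91 and 0.62 with the second-card assay for numbers 1, 2 and 3. In limma with a replicate block, the adjusted p was 0.767 for both. Without EC-Dicerflox replicate 2 the estimates were 0.29 for the first and 0.40 for the second card, and without EC-DicerWT replicate 3 that of the first card was 0.29 too. The estimates from all samples exceeded those of 81.1% and 88.5% of all miRNAs tested. For miR-10b*, the log2 fold change was 1.09 with an adjusted p of 0.923 in limma, and the 2 highest levels came from EC-Dicerflox replicates 1 and 3. Its differences within the numbers were 0.95, 0.20 and 2.13 log2 units.

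For miR-10a, delta CT was 4.05 ± 0.188 in EC-Dicerflox and 3.27 ± 1.98 in EC-DicerWT (SD, n = 3). The log2 fold change was -0.78, with a 95% interval from -3.35 to 1.79 and an adjusted p of 0.923 in limma. Without EC-DicerWT replicate 3 the estimate was 0.35, and without any of the other 5 samples it lay between -1.50 and -0.70. The sign of the miR-10a difference was therefore set by 1 aorta.

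MiR-196b had a delta CT of 9.89 ± 1.01 in EC-Dicerflox and 9.81 ± 0.234 in EC-DicerWT, a log2 fold change of -0.07 with a 95% interval from -1.49 to 1.35 and an adjusted p of 0.982 in limma. Without EC-Dicerflox replicate 3 the estimate was 0.50, and U6 as the only control gave 0.01. MiR-615-3p had a delta CT of 7.34 ± 0.593 in EC-Dicerflox and 7.31 ± 0.148 in EC-DicerWT, a log2 fold change of -0.03 with a 95% interval from -0.98 to 0.91 and an adjusted p of 0.986 in limma. Its sign was not settled either, with 0.05 when U6 alone served as control and a range from -0.36 to 0.22 when 1 sample was left out.

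**Figure D3:**
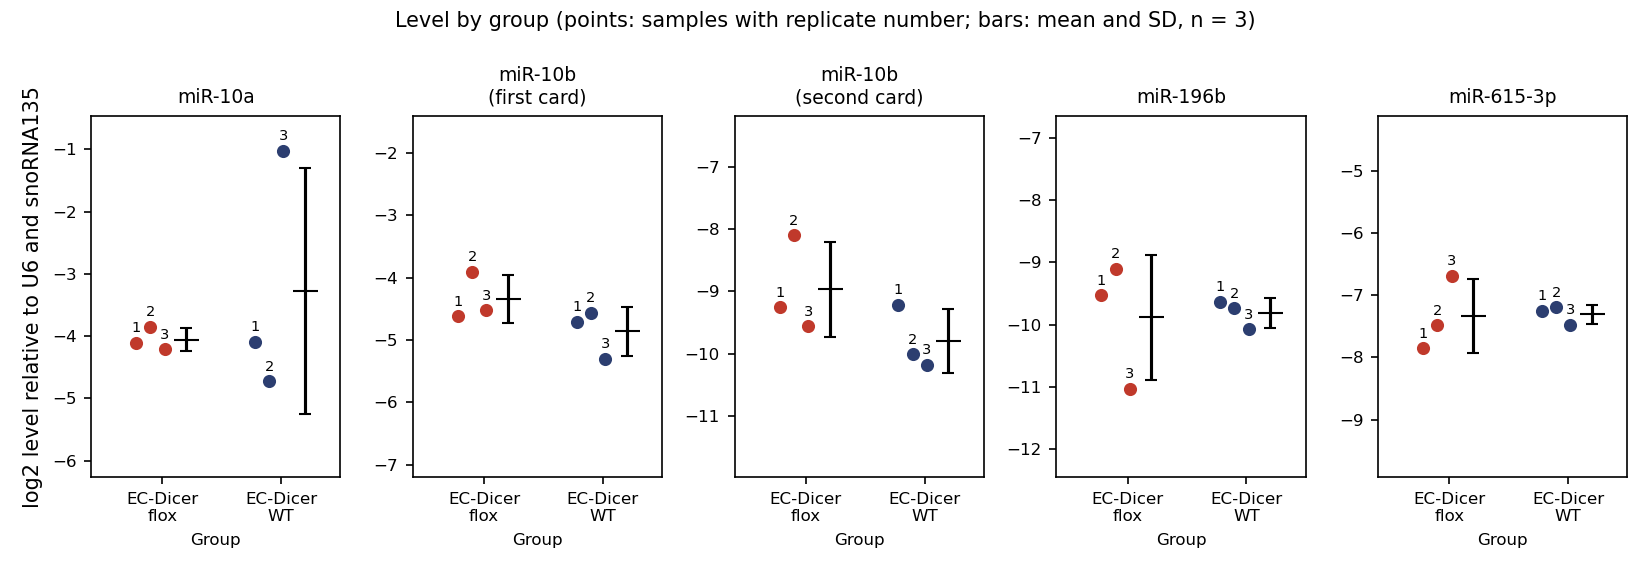
Level on the log2 scale relative to U6 and snoRNA135 (minus delta CT, vertical axes, each spanning the same number of log2 units) of the 5 assays in EC-Dicerflox (red) and EC-DicerWT (blue) aortas; points are samples with their replicate number, and bars show mean and SD (n = 3). The groups overlap in every panel, and miR-10a of EC-DicerWT replicate 3 lies 3.09 log2 units above the median of the other samples.

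**Figure D4:**
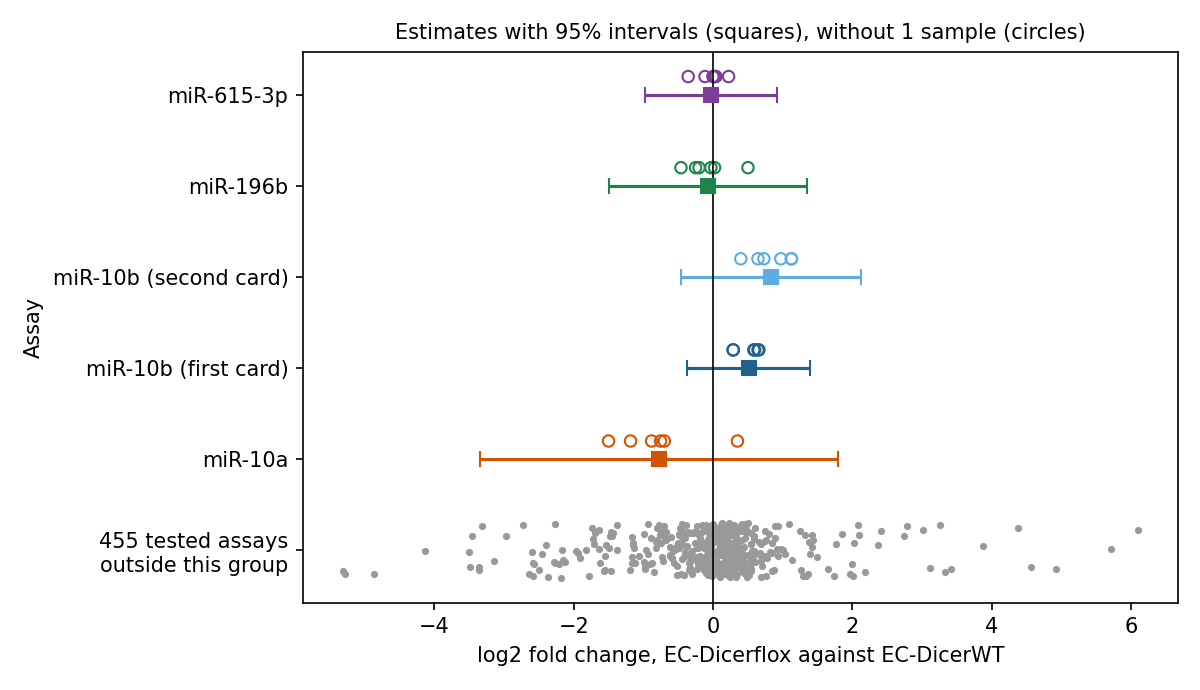
Log2 fold change between EC-Dicerflox and EC-DicerWT (horizontal axis) with its 95% interval in limma for the 5 assays (squares), estimates with 1 sample left out (circles) and the estimates of the 455 assays tested that are not of this group (grey); miR-615-5p is not drawn. All 5 intervals include 0, and the only circle of miR-10a above 0 is the one without EC-DicerWT replicate 3, at 0.35.

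Spread between the aortas set miR-10a apart from the other miRNAs of the group. The SD of delta CT over the 6 samples was 1.33 for miR-10a, 0.446 for miR-10b of the first card, 0.740 for miR-10b of the second card, 0.658 for miR-196b and 0.387 for miR-615-3p. The median over the 350 assays with a signal in all samples was 0.481. MiR-10a had a larger SD than 87.1% of these assays and than all 50 assays nearest to it in mean CT, whose median was 0.351. For the other 4 assays, 52.0% to 70.0% of the 50 nearest had a smaller SD.

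The width came from 1 sample. In EC-DicerWT replicate 3 the level of miR-10a was 3.09 log2 units above the median of the other 5 aortas. Each of those 5, set in the same way against the median of its own other 5 samples, deviated by -0.63 to 0.26. Without EC-DicerWT replicate 3 the SD of miR-10a was 0.323, with 35.1% of the assays below it. Of the 350 assays, 35 had some sample at least as far from the median of the others, and 6, miR-10a among them, had it in EC-DicerWT replicate 3 on the same side. The other 5 were miR-694, miR-1951, miR-98, miR-211 and miR-741. Among 126 assays with a mean CT under 25, only 3 reached this distance, namely miR-10a, miR-100 in EC-Dicerflox replicate 3 (4.20 above) and miR-122 in EC-Dicerflox replicate 2 (4.24 above).

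In the same aorta, the levels of miR-10b were below the median of the others, by 0.74 log2 units for the first-card and 0.93 for the second-card assay, and that of miR-196b by 0.45. The summed levels of marker miRNAs in EC-DicerWT replicate 3, as deviations from the median of the other aortas, ran from -1.03 for the erythroid list to 0.47 for the smooth muscle miRNAs miR-143 and miR-145. Such a sum weights the assays with the earliest signals most, here miR-145, whose CT of 14.69 to 14.96 varied less than the control RNAs. The part of RNA amount, cell make-up or the single PCR well in the miR-10a value was not tested.

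The widths of miR-196b and miR-615-3p also owed most to EC-Dicerflox replicate 3, but in opposite directions. The level of miR-196b lay 1.40 log2 units below the median of the other aortas there, and that of miR-615-3p lay 0.79 above. Without this sample the SD fell to 0.353 for miR-196b and to 0.257 for miR-615-3p. This sample also had the highest control RNA mean, and the choice of control moved these spreads in opposite directions. With snoRNA135 alone the SD over all 6 samples was 0.395 for miR-196b and 0.618 for miR-615-3p, and with U6 alone it was 0.944 and 0.316.

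**Figure D5:**
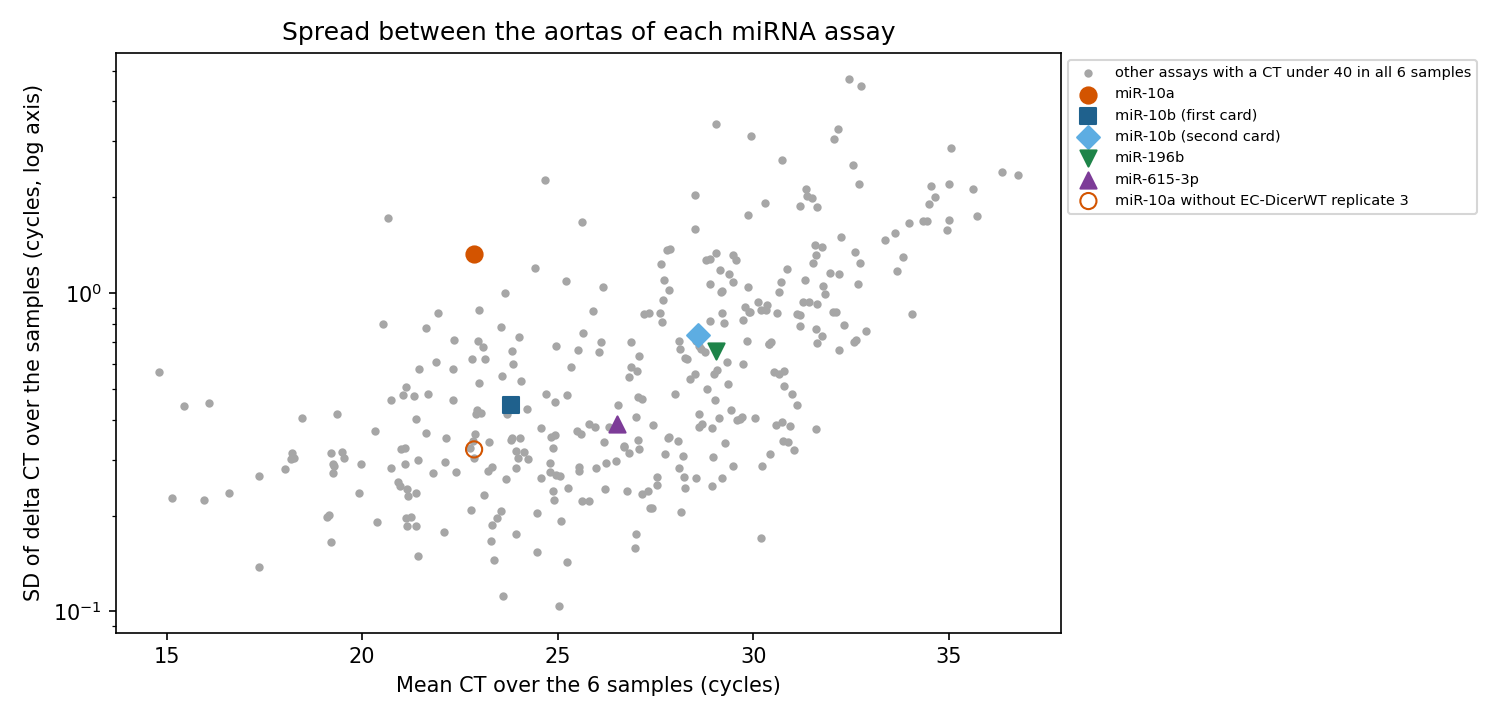
SD of delta CT over the 6 aortas in cycles (vertical log axis) against mean CT in cycles (horizontal axis) for the 350 assays with a signal in all samples, with the 5 Hox-cluster assays as coloured symbols and the others in grey; the open circle is miR-10a without EC-DicerWT replicate 3. MiR-10a lies at 1.33, above the 50 assays nearest in mean CT, and drops to 0.323 without that sample.

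The miRNAs whose profiles over the 6 aortas were most like each Hox-cluster miRNA were not the other Hox-cluster miRNAs. Likeness was measured as the root mean square (RMS) difference in delta CT between profiles centred on their own means, over 349 other assays. The nearest to miR-10b of the first card were miR-19b (0.136), miR-30e (0.153) and miR-193* (0.177), and the second-card assay came at place 99. For miR-10b of the second card they were miR-154 (0.225), miR-126-5p (0.232) and miR-335-5p (0.250), with the first-card assay at place 11. For miR-10a the nearest was miR-183 at 0.522. The RMS difference grows with an assay's own spread, which was widest for miR-10a among the 5 Hox-cluster assays (SD of delta CT 1.33). Its size is therefore not comparable between these assays. The nearest to miR-196b was let-7g* at 0.222, and the nearest to miR-615-3p was miR-409-3p at 0.224. These values describe 6 samples that share their control RNAs.

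The closest relatives of miR-10 by sequence lie outside the Hox clusters and carry the seed ACCCGUA. They are shown because miR-100 and miR-10a share a run of 11 bases, GUAGAUCCGAA, although their seeds differ.
miR-99b (chr17:17830194-17830215, plus strand): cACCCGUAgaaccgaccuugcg
miR-100 (chr9:41531437-41531458, plus strand): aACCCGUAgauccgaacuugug
MiR-99b, encoded in Spaca6 in a cluster known to hold let-7e and miR-125a as well, had a CT of 19.55, 18.91 and 20.71 in EC-Dicerflox and 18.86, 18.94 and 20.28 in EC-DicerWT replicates 1 to 3. The groups overlapped, and the log2 fold change was -0.22 with an adjusted p of 0.923 in limma. MiR-100 had a CT of 21.55, 21.15 and 18.47 in EC-Dicerflox and 19.63, 21.59 and 21.58 in EC-DicerWT replicates 1 to 3. Its earliest signals came from EC-Dicerflox replicate 3 and EC-DicerWT replicate 1, 1 aorta of each group, and its log2 fold change was 0.69 with an adjusted p of 0.923 in limma. The delta CT of miR-100 was 2.66, 2.45 and -1.75 in EC-Dicerflox and 0.82, 2.65 and 1.97 in EC-DicerWT replicates 1 to 3. An estimate above 0 thus rested on EC-Dicerflox replicate 3. MiR-99a was listed at 40 in all 6 samples.

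Markers of the cells in the vessel wall were compared as well. The summed level of the EC miRNAs miR-126-3p and miR-126-5p, on the log2 scale relative to the controls, was 1.05 to 1.72 in EC-Dicerflox and 0.84 to 0.91 in EC-DicerWT aortas, so that it was higher in every EC-Dicerflox sample, with 0 of 2 past the threshold in limma. It was the only one of the 8 cell lists without overlap, beside the 10.4% of single miRNAs without overlap. The summed level of the smooth muscle miRNAs was 4.30 to 5.56 and 4.23 to 4.83. The ranges also overlapped for the lists of leukocytes (-0.89 to -0.23 and -0.54 to 0.32), erythroid cells (-2.21 to -1.23 and -2.42 to -0.70), striated muscle (0.04 to 0.46 and 0.02 to 0.16), epithelia (-4.83 to -2.76 and -4.85 to -3.87), liver (-7.82 to -1.82 and -7.63 to -4.17) and brown fat (1.39 to 1.52 and 0.84 to 1.64). Of the leukocyte miRNAs, 3 of 4 had an estimate below 0, and miR-142-5p did not overlap between the groups, with a log2 fold change of -0.996 and an adjusted p of 0.923 in limma (unadjusted 0.00989). Of the epithelial miRNAs, 5 of 8 had an estimate below 0, with a median of -0.68, and 2 of them did not overlap between the groups. MiR-215 had a log2 fold change of -1.17 with an adjusted p of 0.923 in limma (unadjusted 0.0313), and miR-200a had -0.94 with an adjusted p of 0.923 in limma (unadjusted 0.0788). In the striated muscle list miR-208b and miR-499 were at 40 in all samples, and the other 3 of its 5 measured members had a signal in all samples. The higher estimates of the assays named miR-10b stood beside the higher EC list, and the part of one in the other was not tested.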

How the data were processed

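MiRNA expression was measured in 3 EC-Dicerflox and 3 EC-DicerWT aortas. According to the methods of the study, total RNA was reverse-transcribed, pre-amplified with rodent Megaplex pools and run on TaqMan MicroRNA cards. The authors deposited CT values, on a log2-like scale, without normalization and with 40 for wells without signal. How threshold and baseline were set is not given in the sources used here. Pre-amplification and unequal assay efficiency can change CT differences between assays. Columns were assigned by name, with 0 unused. The labels call the mice male and the methods of the study female; sex was not used.

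The delta CT is the CT minus the mean of 4 control wells (U6 and snoRNA135 on both cards), and the log2 fold change is minus its difference between groups. The cards were inferred from assay numbers of 7 or 6 digits. Groups were compared with limma 3.58.1 (lmFit and eBayes, in R 4.3.3) over 461 miRNAs, with Benjamini-Hochberg adjustment, and single values by two-sided exact permutation (20 arrangements). The limma fit was tested on simulated data. Intervals are 95% intervals. Each array was 1 replicate, and the number of arrays limits the precision.

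The miRNAs reported are all assays meeting the naming rule, their other strands, miR-99a, miR-99b and miR-100, the 3 nearest profiles, in part as a summary, and the marker lists. The assays farthest from the median in 1 sample were named after their values had been seen. Members and lists were chosen with earlier results of these data known. Deviations from the group means went together in samples that shared a number, with correlations of 0.150, 0.224 and 0.431 over 350 miRNAs, each over 0.1. Between numbers 1 and 2 the correlations were 0.285 and 0.117, and the 4 between number 3 and the others ran from -0.353 to -0.185, so that the numbers set replicate 3 apart but did not part 1 from 2. Neither the labels nor the methods say what a number marks. Alternatives were other treatments of undetermined wells, the mean or median over all miRNAs or other control RNAs as reference, controls of the same card, an ordinary linear model, a replicate block, moderation with trend and robust fitting, leaving out each sample and, added after the data had been seen, leaving out replicate 3 of both groups. Sequences, coordinates and neighbouring genes came from RefSeq (GRCm38.p6).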

Additional observations from a re-analysis of the deposited data

How the results depend on the processing

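With 3 aortas per group and wide intervals, these arrays cannot show that the Hox-cluster miRNAs were equal between the groups. Over 20 alternatives, 0 of the 5 assays with a signal in all samples reached an unadjusted p under 0.05 in any fit, and the log2 fold changes of both assays named miR-10b stayed above 0. The treatments of undetermined wells and the changes of model, replicate block included, could not change these log2 fold changes, only their p-values. With 1 aorta of each group per number, the replicate block could not change the 5 log2 fold changes. They remained 0.51 and 0.83 for miR-10b, -0.78 for miR-10a, -0.07 for miR-196b and -0.03 for miR-615-3p, and no call changed. Leaving out 1 sample gave log2 fold changes from -1.50 to 0.35 for miR-10a, 0.29 to 0.66 and 0.40 to 1.12 for the first and second assays named miR-10b, -0.46 to 0.50 for miR-196b and -0.36 to 0.22 for miR-615-3p. The sign turned for miR-10a without EC-DicerWT replicate 3 (0.35), for miR-196b without EC-Dicerflox replicate 3 (0.50) or EC-DicerWT replicate 1 (0.02), and for miR-615-3p without EC-Dicerflox replicate 1 (0.22), EC-Dicerflox replicate 2 (0.04) or EC-DicerWT replicate 2 (0.02). With U6 alone it turned for miR-196b (0.012) and miR-615-3p (0.051), and without replicate 3 of both groups for miR-10a (0.43) and miR-196b (0.37). Without replicate 3 of both groups, the estimate of miR-615-3p was -0.44, its lowest over the 20 alternatives. The group difference in CT between miR-10b and miR-10a ran from -2.16 to 0.062 without 1 sample (0.062 without EC-DicerWT replicate 3) and was 0.055 without replicate 3 of both groups; apart from the samples left out, the cause was not tested. The SD of delta CT was 0.323 to 1.48 (miR-10a), 0.319 to 0.498 and 0.435 to 0.824 (miR-10b), 0.353 to 0.733 (miR-196b) and 0.257 to 0.431 (miR-615-3p) without 1 sample. It was 0.373 for miR-10a and 0.276 for miR-196b without replicate 3 of both groups, 0.674 for miR-10b of the first card with U6 alone, and 0.395 for miR-196b and 0.618 for miR-615-3p with snoRNA135 alone. The number of all miRNAs past the adjusted threshold in limma was 0 and became 0 to 2 without 1 sample (2 without EC-Dicerflox replicate 1, 1 without EC-Dicerflox replicate 3). At an unadjusted p under 0.05 there were 14 in limma, 9 with U6 alone, 24 in the ordinary linear model and 12 to 22 without 1 sample. Groups without overlap were found for 48 miRNAs, for 30 with U6 alone, and with fewer samples for 79 to 109 without 1 sample and 160 without replicate 3 of both groups.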
